A study of Rattus norvegicus with 6 samples.

Results

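C-type lectins, Siglecs, Sirp proteins and scavenger receptors were followed across the cell classes of rat lungs given bleomycin (BLM), which damages the lung epithelium and is followed by scarring. A gene was included when its symbol in the deposited table began with Clec, Colec, Siglec or Sirp, or when it was Mrc1, Mrc2, Msr1, Marco, Cd163, Stab1, Stab2, Scara5, Scarb1, Vsig4 or Cd14. This gave 46 of the 16383 genes with values: 26 Clec, 1 Colec, 5 Siglec and 3 Sirp genes and all 11 fixed names. Adult Sprague Dawley rats received either 5 mg/kg BLM into the trachea in a single dose (BLM-treated, 3 rats) or the same volume of saline (control, 3 rats), and a small piece of lung tissue from each rat was dissociated on day 28 for single-cell RNA sequencing with the BD Rhapsody system. No transgene or deletion was involved, and the cells were not sorted. The question was in which kinds of macrophage, and in which other cells, the level of these receptors differed between BLM-treated and control rats.

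These receptors sit mostly on the surface of myeloid cells and read the chemistry of what touches the cell. C-type lectins bind sugars or lipids of microbes, matrix and dying cells, and signal through Syk and Card9 or through inhibitory phosphatases. Siglecs bind sialic acid on neighbouring cells, Sirpa binds Cd47, and scavenger receptors take up modified lipoproteins, haemoglobin complexes, matrix fragments and other polyanions. In the lung, the alveolar macrophage lives on the air side and clears surfactant, whereas interstitial macrophages lie in the tissue and carry complement C1q.

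The table held 25547 cells. Control rats gave between 2568 and 4598 cells with 3860028 to 12171722 unique molecular identifiers (UMIs, which count captured molecules) each, and BLM-treated rats gave between 3657 and 7481 cells with 8082376 to 16598959. Of the cell barcodes, 314 occurred in more than 1 rat, in 629 cells. Cells were clustered without the 46 genes, and a cluster was named from marker genes of the cell type it resembled, so that each class name below means "like" that type. Levels are CPM, the UMIs of a gene as a share of all UMIs of the class in that rat, scaled to the usual counts-per-million total. CPM are not scaled by gene length, so that the order of different genes is an order of captured molecules. The alveolar macrophage class held 6038 cells, and its list of 10 markers summed to between 6145 and 7913 CPM, against 295 to 371 CPM in the 652 interstitial macrophages. The 9 interstitial markers, C1qa, C1qb and C1qc among them, summed to between 13025 and 15362 CPM in the interstitial and to between 341 and 755 CPM in the alveolar class. A class of 982 Spp1 macrophages came almost only from BLM-treated rats, with 184, 661 and 124 cells against 3, 2 and 8 in control rats, and could not be tested between groups.

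The 46 genes together took 327799 UMIs, 0.5745% of all. Clec7a, the receptor for fungal beta-glucan, was the largest with 107901 UMIs, and Clec18a the smallest with 13. There were 7 genes with at least 10000 UMIs and 9 with under 100. Marco, a scavenger receptor of macrophages, had 21 UMIs in 7 cells. The alveolar macrophage class held more UMIs than any other class for 21 genes, the Spp1 class for 6 and fibroblasts for 4. The alveolar class was also the largest, with 6038 of the 25547 cells, and such counts grow with class size. Of the 21, Clec7a also had its highest mean level in this class. Cd14 had 36.8% of its UMIs there but its highest mean level, 1276 CPM, in classical monocytes. For 6 genes at least 90% of the UMIs lay in a single class.

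**Figure D1:**
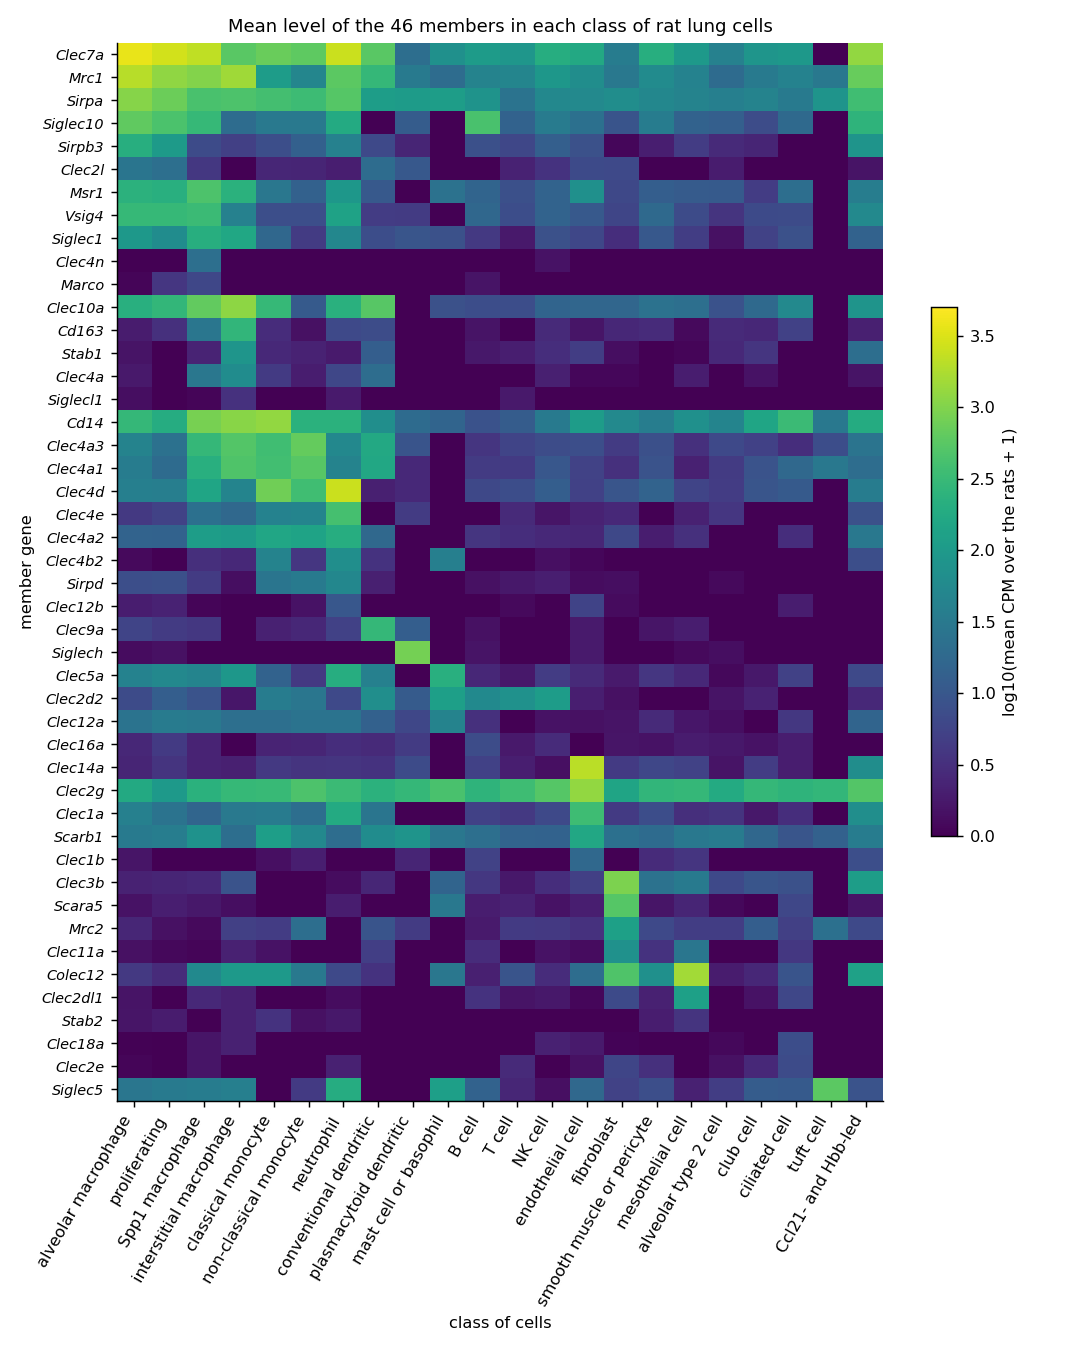
Heat map of the level of the 46 genes (rows) in 22 classes of cells (columns), as log10 of the mean CPM over the rats plus 1, with yellow for high and dark purple for low levels. Clec7a, Mrc1 and Sirpa are bright in all macrophage classes, whereas Clec14a is bright in endothelial cells, Siglech in plasmacytoid dendritic cells, and Scara5 and Clec3b in fibroblasts.

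In alveolar macrophages the 3 most abundant genes were Clec7a at 3816 CPM ± 456 (SD, n = 6), Mrc1, the mannose receptor, at 2000 CPM ± 363, and Sirpa, the inhibitory receptor for Cd47, at 1083 CPM ± 137. In interstitial macrophages they were Mrc1 at 1468 CPM ± 280, Clec10a, a lectin for galactose and N-acetylgalactosamine, at 1192 CPM ± 391, and Cd14, the co-receptor for lipopolysaccharide, at 1106 CPM ± 485 (SD, n = 6). The Spp1 macrophages of the BLM-treated rats had Clec7a at 2188 CPM ± 253, Mrc1 at 1048 CPM ± 291 and Cd14 at 884 CPM ± 129 (SD, n = 3). Clec7a thus came first in the alveolar and Spp1 classes and Mrc1 in the interstitial class, but Mrc1, Clec10a and Cd14 lay within each other's spread there. Cd163, the receptor for haptoglobin and haemoglobin, had 60.9% of its UMIs in interstitial macrophages, where it reached 267 CPM ± 94.7 (SD, n = 6), against 27.5 CPM ± 17.3 in Spp1 macrophages. Stab1, a scavenger receptor of resident macrophages and sinus endothelium, had 61.9% of its UMIs in the interstitial class. Of the 73 UMIs of Clec4n, 98.6% were in Spp1 macrophages.

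Outside the macrophages the leading gene changed with the class. Classical monocytes were led by Cd14 at 1276 CPM ± 319 (SD, n = 6). In non-classical monocytes Clec4a3, of the inhibitory DCIR group, at 673 CPM ± 92.3 and Clec7a at 600.1 CPM ± 149 lay within each other's spread, with Clec7a first in the mean of the control and Clec4a3 in that of the BLM-treated rats. In neutrophils Clec4d, a receptor for mycobacterial glycolipid, at 2559 CPM ± 892 and Clec7a at 2533 CPM ± 655 were level over the 6 rats. Clec4d came first in every control rat and Clec7a, at 3125, 3215 and 2776 CPM, in every BLM-treated rat. The class held 49.0% of the UMIs of Clec4d. Its partner Clec4e, also called Mincle, had 58.1% of its UMIs in neutrophils. Conventional dendritic cells had Clec7a at 564 CPM ± 173 and Clec10a at 554 CPM ± 259, within each other's spread and with Clec10a first in the mean of the BLM-treated rats, and held 56.0% of the UMIs of Clec9a, the receptor of cross-presenting dendritic cells for actin of dead cells. Plasmacytoid dendritic cells were led by Siglech, a marker of that cell, at 832 CPM ± 185, with 96.9% of its UMIs. B cells were led by the inhibitory Siglec10 at 435 CPM ± 193. Clec2g, of a family that serves as ligands of NK cell receptors, led in NK cells at 522 CPM ± 93.5 and in T cells at 353 CPM ± 73.2 (SD, n = 6).

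Among structural cells, endothelial cells held 96.5% of the UMIs of Clec14a, an endothelial surface protein. It led in control rats at 3038 CPM ± 716, whereas in BLM-treated rats Clec14a at 1164 CPM ± 176 and Clec2g at 1176 CPM ± 83.1 were level (SD, n = 3 each). Mesothelial cells were led by Colec12, a scavenger collectin, at 1558 CPM ± 550 (SD, n = 6). Fibroblasts were led by Clec3b, the plasminogen-binding tetranectin, at 936 CPM ± 176 (SD, n = 5) and held 98.3% of the UMIs of Scara5, a ferritin receptor, and 71.8% of those of Mrc2, which takes up collagen. The Clec2g gene led again in club cells at 292 CPM ± 51.6, in alveolar type 2 cells at 182 CPM ± 51.7 and in mast cells or basophils at 440.0 CPM ± 85.4. In smooth muscle cells or pericytes Clec2g at 271 CPM ± 86.3 and Clec7a at 211 CPM ± 116 lay within each other's spread, and Clec7a came first in the mean of the BLM-treated rats. Ciliated cells were led by Cd14 at 330 CPM ± 131 (3 BLM-treated rats), tuft cells by Siglec5 at 577 CPM ± 97.6 (3 control rats), and a mixed class led by Ccl21 and Hbb by Clec7a at 1267 CPM ± 884 (SD, n = 4). Proliferating cells, in which the alveolar markers summed to between 4032 and 4564 CPM, had Clec7a at 2776 CPM ± 210 (SD, n = 6).

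The effect of BLM was tested on UMIs summed per rat and class with edgeR's quasi-likelihood test, adjusted by Benjamini-Hochberg over all genes tested in the class, with a threshold of 0.05. The rat was the replicate. Of the 46 genes, 35 passed the filter on low counts in at least 1 of 17 classes, and 11 in none (Clec12b, Clec16a, Clec18a, Clec1b, Clec2e, Clec4a, Clec4n, Marco, Siglecl1, Stab1 and Stab2). Of 163 tested pairs of gene and class, 29 passed the threshold, from 18 genes in 6 classes. Over all genes, the share that passed ran from 0% in conventional dendritic cells to 17.2% in neutrophils, and is given with each class below. Cd14 passed in 4 classes, and Clec10a and Siglec1 in 3 each.

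In alveolar macrophages, Clec10a, Cd14, Scarb1, Siglec1 and 4 of 7 neighbouring Clec4 genes were higher in BLM-treated rats, and Clec2l was lower. Of 24 genes tested, 10 rose and 1 fell, which is 45.8%, against 11.4% of all 9255 genes tested in the class (6.87% higher, 4.51% lower). The median log2 fold change was 0.39 over the 24 genes, 18 of them above 0, and 0.0035 over all genes. The other 22 genes did not pass the filter in this class.

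Clec10a gave 16.1, 5.46 and 11.3 CPM in control replicates 1 to 3 and 366, 463 and 440.3 CPM in BLM-treated replicates 1 to 3. The lowest BLM-treated rat was far above the highest control rat, and the means differed 38.6-fold. The log2 fold change was 5.12 ± 0.26 (SE; edgeR adjusted p = 4.51e-06). In B cells of the same lungs Clec10a was at 0 CPM in the control rats and at 8.04, 23.7 and 7.38 CPM in BLM-treated replicates 1 to 3. T cells likewise had 0 CPM in control rats and 0, 25.8 and 13.2 CPM in BLM-treated rats. The neutrophil class had 8.45, 49.9 and 22.7 CPM in control and 270.0, 751 and 222 CPM in BLM-treated rats. The part of stray RNA or mixed cells in these levels was not tested.

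Cd14 was at 112, 88.7 and 145 CPM in control and at 491, 449 and 459.6 CPM in BLM-treated rats. The groups did not overlap, and the BLM-treated rats lay close together (log2 fold change 1.97 ± 0.19, edgeR adjusted p = 0.000172). Scarb1, the receptor through which cells exchange cholesterol with high-density lipoprotein, was at 14.1, 10.2 and 19.0 CPM in control and 53.0, 60.3 and 37.9 CPM in BLM-treated rats, with a log2 fold change of 1.69 ± 0.25 (edgeR adjusted p = 0.00237). Siglec1, or sialoadhesin, which binds sialic acid on other cells, was at 66.0, 32.1 and 62.5 CPM in control and 129.7, 113 and 149 CPM in BLM-treated rats. It rose by 1.20 ± 0.22 on the log2 scale (edgeR adjusted p = 0.00748).

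The strongest fall was that of Clec2l, a lectin best known from the brain. Its level was 45.5, 64.8 and 42.5 CPM in control and 1.53, 4.38 and 2.02 CPM in BLM-treated rats, or 19.3-fold lower in the mean. The log2 fold change was -4.10 ± 0.31 (edgeR adjusted p = 4.52e-05), and 78.9% of all Clec2l UMIs were in this class. Mrc1 was at 1861, 1669 and 1537 CPM in control and 2215, 2277 and 2438 CPM in BLM-treated rats. Here the groups were apart but the change was small, 0.44 ± 0.12 on the log2 scale (edgeR adjusted p = 0.0473), and its adjusted p was above 0.05 whenever any 1 rat was left out, between 0.0503 and 0.159.

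**Figure D2:**
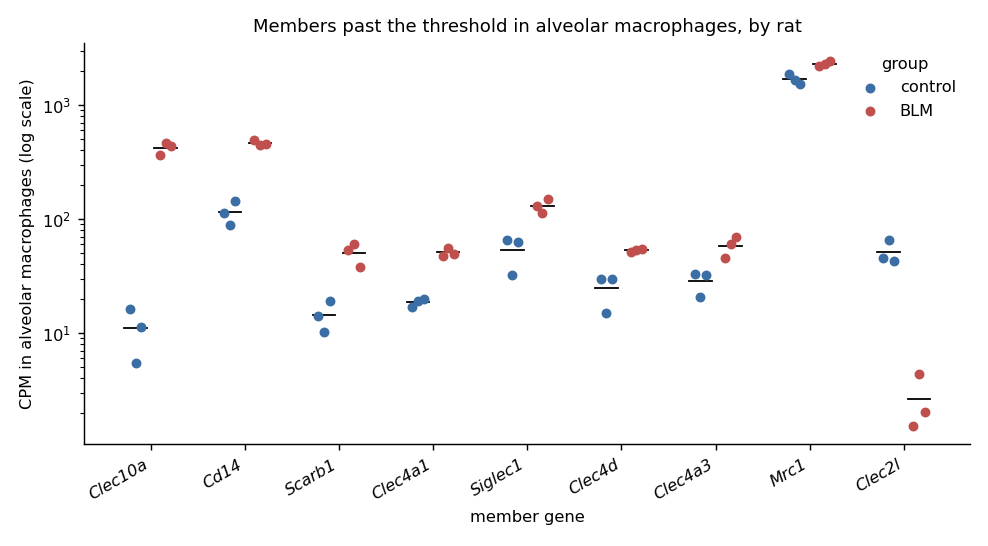
Level in alveolar macrophages (CPM, log axis) of the 9 genes past the threshold with a mean of at least 20 CPM and no overlap between groups, with a point for each control (blue) and BLM-treated (red) rat and a black line at the group mean. Clec10a lies between 5.46 and 16.1 CPM in control rats and between 366 and 463 CPM in BLM-treated rats, and Clec2l is the only one of the 9 that is lower after BLM.

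The Clec4 genes that rose in alveolar macrophages are neighbours. Among protein-coding genes in the RefSeq annotation of the rat assembly GRCr8, Clec4a1, Clec4a3, Clec4a2, Clec4a, Clec4b2, Clec4d and Clec4e directly follow each other on chromosome 4. Of these 7, Clec4a, Clec4b2 and Clec4e did not pass the filter on low counts in this class and were not tested. Clec4a1, Clec4a2 and Clec4a3 belong to the DCIR group of lectins, in which inhibitory members are known, and Clec4d pairs with Clec4e. Clec4a1 was at 16.8, 19.1 and 19.99 CPM in control and 47.3, 55.9 and 49.6 CPM in BLM-treated rats (log2 fold change 1.43 ± 0.16, edgeR adjusted p = 0.000408). Clec4a3 was at 33.1, 20.5 and 32.6 CPM in control and 45.8, 60.1 and 69.3 CPM in BLM-treated rats (log2 fold change 0.94 ± 0.20, edgeR adjusted p = 0.0154). Clec4d was at 29.9, 15.01 and 29.8 CPM in control and 51.1, 53.0 and 54.8 CPM in BLM-treated rats (log2 fold change 0.98 ± 0.21, edgeR adjusted p = 0.0162). For all 3 the groups did not overlap, but the call was lost for Clec4a3 without BLM-treated replicate 2 or 3 and for Clec4d without BLM-treated replicate 1 or 2, with adjusted p up to 0.0708 and 0.0687. Clec4a2 and Clec2d2, both under 20 CPM and named here after their values were seen, also passed (log2 fold changes 1.39 ± 0.36 and 1.72 ± 0.48, edgeR adjusted p = 0.0346 and 0.0460), and lost the call on leaving out any 1 of 4 and any 1 of 5 rats, respectively. These genes resemble each other in sequence, and reads that fit several of them may have been divided by the counting, so that their separate values are uncertain.

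The promoters of the 4 neighbours that rose together are printed with those of Cd14, which passed in the most classes, and of Clec2l, which fell most. Each runs from 250 bases before to 50 bases after the gene start in RefSeq on GRCr8, and is printed 5′ to 3′ on the strand of the gene. GRCr8 is not the build named for the counts. Capitals mark GAGGAA, a core of the motif of the myeloid factor PU.1, or its reverse complement. The windows are chr4:157845561-157845860, chr4:157886508-157886807, chr4:157934346-157934645, chr4:158275093-158275392 and chr4:68364910-68365209 on the plus strand and chr18:28611109-28611408 on the minus strand.
Clec4a1: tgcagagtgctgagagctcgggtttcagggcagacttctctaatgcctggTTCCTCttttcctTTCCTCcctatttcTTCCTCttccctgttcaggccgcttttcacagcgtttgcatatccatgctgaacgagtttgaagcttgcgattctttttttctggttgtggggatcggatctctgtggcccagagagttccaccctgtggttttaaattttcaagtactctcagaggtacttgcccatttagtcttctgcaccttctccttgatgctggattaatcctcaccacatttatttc
Clec4a3: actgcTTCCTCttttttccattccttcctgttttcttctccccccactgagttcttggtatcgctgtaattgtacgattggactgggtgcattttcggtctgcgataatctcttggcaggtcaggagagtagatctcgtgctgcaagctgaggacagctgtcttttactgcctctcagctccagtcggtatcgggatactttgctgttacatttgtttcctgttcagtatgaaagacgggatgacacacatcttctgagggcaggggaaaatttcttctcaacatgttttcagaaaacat
Clec4a2: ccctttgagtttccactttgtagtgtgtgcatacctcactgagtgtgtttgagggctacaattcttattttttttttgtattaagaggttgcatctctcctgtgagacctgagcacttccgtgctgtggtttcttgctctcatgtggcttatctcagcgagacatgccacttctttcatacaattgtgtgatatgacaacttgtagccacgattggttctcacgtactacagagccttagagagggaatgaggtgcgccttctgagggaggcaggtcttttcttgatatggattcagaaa
Clec4d: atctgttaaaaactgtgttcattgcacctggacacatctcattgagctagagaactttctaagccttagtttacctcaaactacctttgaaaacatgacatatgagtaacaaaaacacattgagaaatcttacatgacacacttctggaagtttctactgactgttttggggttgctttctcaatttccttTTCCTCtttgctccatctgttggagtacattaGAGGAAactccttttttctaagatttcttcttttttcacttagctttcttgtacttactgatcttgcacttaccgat
Clec2l: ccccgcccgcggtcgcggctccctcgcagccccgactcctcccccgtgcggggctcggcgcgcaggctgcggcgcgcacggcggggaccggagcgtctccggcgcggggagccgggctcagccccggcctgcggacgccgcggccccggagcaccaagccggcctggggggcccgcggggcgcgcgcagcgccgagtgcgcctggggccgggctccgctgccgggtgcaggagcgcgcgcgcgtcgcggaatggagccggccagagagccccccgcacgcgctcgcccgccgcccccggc
Cd14: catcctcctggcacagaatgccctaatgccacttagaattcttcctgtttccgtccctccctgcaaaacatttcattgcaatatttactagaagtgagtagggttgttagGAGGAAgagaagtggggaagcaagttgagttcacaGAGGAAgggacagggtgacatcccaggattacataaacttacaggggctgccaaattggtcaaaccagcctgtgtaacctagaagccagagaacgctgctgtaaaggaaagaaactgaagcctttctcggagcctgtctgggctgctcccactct

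The core occurred 3 times in the window of Clec4a1, 2 times in those of Clec4d and Cd14, 1 time in that of Clec4a3 and 0 times in those of Clec4a2 and Clec2l. It was present in 27.6% of all 33469 promoters of the same length and in 20 of the 33 promoters available for the 46 genes. Other motifs searched on both strands were TGANTCA of AP-1, in 7.33% of all promoters and 2 of the 33 and TATAAA, the TATA box, in 14.2% and 4 of the 33. A match is a description of letters and not a measured site. Clec10a was among the genes without an entry.

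The alveolar class was made of 3 clusters whose shares differed between the groups. The cluster led by Olr1 and Fabp4 made up 62.4%, 58.8% and 35.7% of the class in BLM-treated replicates 1 to 3 and 6.51%, 1.15% and 6.52% in control replicates 1 to 3. That led by Tchh made up 14.2% to 16.7% in BLM-treated and 38.0% to 84.0% in control rats. The change of Clec10a was present within each cluster: its mean was 14.0 CPM in control and 439 CPM in BLM-treated rats in the cluster led by Slc39a2, 6.58 and 288 CPM in that led by Tchh, and 18.8 (2 rats) and 413 CPM in that led by Olr1. Clec2l was at 46.9 and 2.41 CPM, 59.5 and 3.54 CPM, and 40.9 (2 rats) and 2.66 CPM in the same order. Cd14 was at 119.9 and 359 CPM, 86.7 and 217 CPM, and 269 (2 rats) and 550.1 CPM. Clec4d was at 27.3 and 44.6 CPM, 16.0 and 45.0 CPM, and 52.6 (2 rats) and 56.4 CPM, so that its groups were nearly level in the Olr1-led cluster. Tested in the cells of the Slc39a2-led cluster alone, 7 genes passed in place of 11, and Clec10a, Clec2l, Cd14, Clec4a1, Scarb1 and Siglec1 were among them. The calls of Clec4a2, Clec4d and Mrc1 were lost there.

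Markers of other cells moved within the class too. The 10 alveolar markers summed to 7399 to 7913 CPM in control and 6145 to 6893 CPM in BLM-treated rats, the 9 interstitial markers to 341 to 390 and 638 to 755 CPM, and 7 classical monocyte markers to 618 to 667 and 1054 to 1563 CPM. Up to 3 interstitial and up to 2 monocyte markers were at 0 in a rat. The part of such cells or their RNA in the changes of Clec10a, Cd14 and the Clec4a genes was not tested.

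The most abundant receptors of the class other than Mrc1 did not pass. Clec7a was at 3647, 3219 and 3416 CPM in control and 4075, 4358 and 4180.1 CPM in BLM-treated rats (log2 fold change 0.28 ± 0.13, edgeR adjusted p = 0.206). Sirpa was at 1239, 1234 and 1058 CPM in control and 1001, 886 and 1079.7 CPM in BLM-treated rats, with overlapping groups (log2 fold change -0.26 ± 0.12, edgeR adjusted p = 0.213). Among the others, chosen after their values were seen, Siglec10 had a log2 fold change of 0.08 ± 0.13 and Msr1, the class A scavenger receptor, of 0.14 ± 0.16.

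Genes that work with these receptors moved in both directions in alveolar macrophages. Of 13 signalling partners, all tested, 1 rose and 3 fell. Bcl10, which acts downstream of Card9, went from 76.5 ± 7.15 CPM in control to 151 ± 18.5 CPM in BLM-treated rats (SD, n = 3 each; log2 fold change 0.96 ± 0.15, edgeR adjusted p = 0.00294). Tyrobp, the adaptor DAP12, went from 1356 ± 134 to 930.4 ± 62.9 CPM (log2 fold change -0.55 ± 0.12, edgeR adjusted p = 0.0154). The phosphatase gene Inpp5d and the phospholipase gene Plcg2 fell by 0.56 and 0.72 on the log2 scale. Of other scavenger receptors 5 were tested, and Olr1, the receptor for oxidised low-density lipoprotein, rose from 654 ± 133 to 1882 ± 158 CPM (log2 fold change 1.51 ± 0.18, edgeR adjusted p = 0.000683). Cxcl16 rose by 0.62, and Lrp1, an endocytic receptor, fell by 1.14 on the log2 scale. Of 4 tested partners of Cd14 in sensing lipopolysaccharide, 0 passed.

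Of 6 tested genes for Cd47 and other ligands, Pdpn, a ligand of Clec1b, rose by 4.01 ± 0.36 on the log2 scale, from 2.23 ± 1.09 to 31.3 ± 6.22 CPM. The 6 alveolar type 1 markers summed to 18.1 to 40.3 CPM in control and 179 to 272 CPM in BLM-treated rats in this class, and their part in the value of Pdpn was not tested. The surfactant protein gene Sftpa1, a product of type 2 cells, fell by 3.08 on that scale, from 43.4 ± 41.0 to 4.65 ± 2.28 CPM, and the 7 type 2 markers summed to 222 to 669 CPM in control and 127 to 172 CPM in BLM-treated rats in this class. Of 8 tested lectins under other symbols, Thbd and Cd69 rose by 2.07 and 0.76 on the log2 scale, and Cd72, a lectin of B cells, fell by 3.05 from a level of 5.96 ± 1.93 CPM.

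In interstitial macrophages 0 of 14 genes tested passed the threshold with edgeR or with DESeq2, against 1.24% of all 2657 genes tested there. An unadjusted edgeR p under 0.05 was found for 7 of the 14, and for 325 of the 2657. The median log2 fold change was 0.32 over the 14 genes, 10 of them above 0, and -0.02 over all genes. Clec10a was at 884, 815 and 982 CPM in control and 1203, 1849 and 1421 CPM in BLM-treated rats (log2 fold change 0.75 ± 0.21, edgeR adjusted p = 0.108). Its groups did not overlap, and its lowest level here was above its highest in alveolar macrophages. Mrc1 was at 1046, 1458 and 1335 CPM in control and 1413, 1788 and 1769.6 CPM in BLM-treated rats (log2 fold change 0.39 ± 0.21, edgeR adjusted p = 0.477). Cd14 was at 1038, 343 and 1836 CPM in control and 1130.4, 1305 and 983 CPM in BLM-treated rats, with control replicate 2 at the bottom and control replicate 3 at the top (log2 fold change 0.06 ± 0.34).

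The lowest p among the 14 was that of Siglec1, named here with Cd163 after their values were seen. Siglec1 was at 84.6, 114 and 68.7 CPM in control and 268, 149 and 285 CPM in BLM-treated rats, all higher (log2 fold change 1.39 ± 0.36, edgeR adjusted p = 0.0793). Siglec1 passed the threshold with no filter on low counts, with a replicate block, at a clustering resolution of 2.0 and without BLM-treated replicate 2. Cd163 was at 238, 172 and 167 CPM in control and 312, 415 and 301 CPM in BLM-treated rats, again without overlap (log2 fold change 0.83 ± 0.25, edgeR adjusted p = 0.138). The class held between 50 and 250 cells per rat, which limits what could be detected. Of the 5 lists of partners, with 10, 4, 2, 3 and 3 genes tested, 0 genes passed in this class. The 10 Spp1 macrophage markers summed to 4588 to 5467 CPM in control and 7877 to 10806 CPM in BLM-treated interstitial macrophages, and their part in these values was not tested.

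The difference of the BLM effect between the kinds of macrophage was tested in a single fit with the rat as a block. Of 27 genes tested 3 passed, against 2.61% of 8430 genes. The effect in interstitial minus that in alveolar macrophages was -4.27 ± 0.26 for Clec10a (log2, SE; edgeR adjusted p = 1.4e-22), -1.64 ± 0.25 for Cd14 (edgeR adjusted p = 1.6e-06) and -1.03 ± 0.27 for Clec4a1 (edgeR adjusted p = 0.0172). For Clec4a1 the call was lost without control replicate 3 or BLM-treated replicate 2, with adjusted p up to 0.133. For Siglec1 the difference was 0.34 ± 0.38 and for Mrc1 0.15 ± 0.23 on the log2 scale, neither past the threshold.

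**Figure D3:**
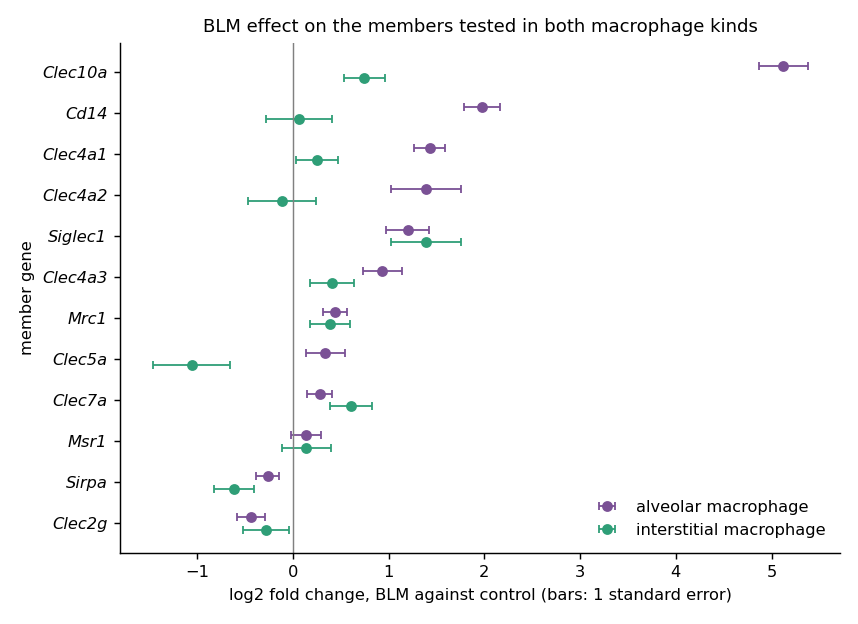
Log2 fold change of BLM-treated against control rats (points, with bars of 1 standard error) in alveolar (purple) and interstitial (green) macrophages for the 12 genes tested in both. Clec10a at 5.12 and 0.75 and Cd14 at 1.97 and 0.06 lie far apart, whereas Siglec1 at 1.20 and 1.39 and Mrc1 at 0.44 and 0.39 lie close together.

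The 3 BLM-treated rats each gave Spp1 macrophages. Clec10a there varied between rats and was at 337, 985 and 623 CPM in BLM-treated replicates 1 to 3. Msr1 was at 386, 523 and 471 CPM, higher than its 234 CPM ± 34.1 in alveolar macrophages (SD, n = 6), a description without a test.

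Proliferating cells repeated the alveolar pattern for Clec10a, Cd14, Siglec1 and Clec2l. Of 14 genes tested 3 rose and 2 fell, or 35.7%, against 6.35% of 4708 genes (3.55% higher, 2.8% lower). Of these 5, 4 were among the 11 that had passed in alveolar macrophages. Others of the 11 did not pass here, such as Clec4d (edgeR adjusted p = 0.247). Clec10a was at 13.6, 10.2 and 3.73 CPM in control and 494, 619 and 563 CPM in BLM-treated rats (log2 fold change 6.15 ± 0.30, edgeR adjusted p = 5.52e-15). Cd14 was at 68.0, 46.1 and 47.2 CPM in control and 432, 216 and 367 CPM in BLM-treated rats (log2 fold change 2.58 ± 0.26, edgeR adjusted p = 2.82e-08). Siglec1 was at 43.5, 20.5 and 22.4 CPM in control and 95.5, 98.2 and 97.9 CPM in BLM-treated rats (log2 fold change 1.75 ± 0.32, edgeR adjusted p = 0.000412). In each of these the groups stood apart. Clec2l was at 38.1, 41.0 and 48.5 CPM in control and at 0, 2.73 and 0 CPM in BLM-treated rats, which is 1 UMI in 3 rats (log2 fold change -4.66 ± 0.79, edgeR adjusted p = 0.00013). Only 3 of the 6 settings that left out 1 rat gave Clec2l a value in this class, and the call was kept in those 3. The fifth gene, Sirpb3, overlapped between groups and lost the call on leaving out any 1 of 4 rats, with DESeq2 and with a replicate block. The alveolar markers summed to 4354 to 4564 CPM in control and 4032 to 4478 CPM in BLM-treated rats in this class, the interstitial markers to 209 to 286 and 488 to 661 CPM. The 7 classical monocyte markers summed to 359 to 367 CPM in control and 977 to 1539 CPM in BLM-treated rats and the 10 Spp1 markers to 3494 to 4680.3 and 6502 to 9058 CPM. The part of such cells or their RNA in these changes was not tested.

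In neutrophils Clec4d and Clec4b2 fell in BLM-treated rats, and Clec10a, Cd14, Mrc1, Siglec1, Clec4a3, Siglec10, Msr1 and Vsig4, which are better known from macrophages and monocytes, rose. Of 19 genes tested 8 rose and 2 fell, or 52.6%, against 17.2% of 3250 genes (9.11% higher, 8.12% lower), with a median log2 fold change of 0.02 over the 19 genes. Clec4d, the leading gene in control rats, was at 3589, 3305 and 3185 CPM in control and 1811, 1591 and 1871 CPM in BLM-treated rats. The BLM-treated rats all lay below the control rats (log2 fold change -1.08 ± 0.20, edgeR adjusted p = 0.00403). Clec4b2, a neighbour of Clec4d, was at 126.7, 64.1 and 87.4 CPM in control and 35.4, 23.5 and 62.0 CPM in BLM-treated rats (log2 fold change -1.44 ± 0.42, edgeR adjusted p = 0.0274). Its groups nearly touched, and the call was lost without control replicate 1 or 3 or BLM-treated replicate 1 or 2, with adjusted p up to 0.18. The call of Clec4b2 was also lost with DESeq2 and with a replicate block.

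Clec10a in neutrophils was at 8.45, 49.9 and 22.7 CPM in control and 270.0, 751 and 222 CPM in BLM-treated rats (log2 fold change 3.85 ± 0.54, edgeR adjusted p = 0.00118). Cd14 was at 42.2, 7.12 and 77.7 CPM in control and 487, 491 and 274 CPM in BLM-treated rats (log2 fold change 2.95 ± 0.41, edgeR adjusted p = 0.00118). Mrc1 was at 270.2, 207 and 320.4 CPM in control and 792, 1102 and 853 CPM in BLM-treated rats (log2 fold change 1.63 ± 0.25, edgeR adjusted p = 0.00152). The groups were apart in each case. Siglec1, Clec4a3, Siglec10 and Msr1 rose by 3.59, 2.63, 1.77 and 1.56 on the log2 scale. Of these, Clec4a3 lost the call without control replicate 3 and Msr1 without control replicate 1 or 2 or BLM-treated replicate 2, with adjusted p up to 0.0507 and 0.186. Msr1 also lost the call with a replicate block. With the cells marked as doublets removed, Siglec1 and Msr1 rose by 5.16 and 2.16 on the log2 scale. Leaving out 1 rat gave a log2 fold change of up to 4.33 for Siglec1, 2.62 for Siglec10 and 2.26 for Msr1.

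The marker lists of the neutrophil class moved with these genes. The 9 neutrophil markers summed to 37398 to 46897 CPM in control and 10730 to 22037 CPM in BLM-treated rats, the 10 alveolar markers to 791 to 1780.1 and 2052 to 2957 CPM, the 9 interstitial markers to 178 to 413 and 544 to 1544 CPM, and the 10 Spp1 markers to 1360 to 3376 and 6162 to 11510 CPM. Up to 2 alveolar, 7 interstitial and 5 Spp1 markers were at 0 in a rat. At a resolution of 2.0, looked at after the values were seen, the neutrophil clusters differed in their numbers between groups. That led by S100a9 and Mmp8 held 140, 167 and 292 cells of control and 116, 188 and 144 of BLM-treated rats. That led by Il1r2 and Acod1, for which the Spp1 macrophage list came second, held 27, 51 and 40 and 58, 189 and 63 cells. The part of macrophages or their RNA, or of the makeup of the class, in the values of this class was not tested.

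In endothelial cells 1 of 10 genes tested passed, or 10%, against 6.77% of 6186 genes. This was Clec14a, at 3830, 2437 and 2848 CPM in control and 998, 1146 and 1347 CPM in BLM-treated rats. Every BLM-treated rat lay below every control rat, and the mean was 2.61-fold lower (log2 fold change -1.22 ± 0.21, edgeR adjusted p = 0.00178). At the resolution used, the order was the same in both clusters of the class: in that led by Emcn the control rats had 4470.4, 2928 and 3113 CPM and the BLM-treated rats 1079, 1286 and 1489 CPM. In that led by Vwf the values were 2577, 1496 and 1210 CPM and 459, 297 and 434 CPM, from 7 to 74 cells per rat. The 10 endothelial markers summed to 14752 to 16494 CPM in control and 12078 to 12750 CPM in BLM-treated rats, a smaller difference than that of Clec14a, and their part was not tested. The control rats gave 27, 41 and 150 endothelial cells.

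At a resolution of 2.0, looked at after the values were seen, the endothelial cells fell into 3 clusters in unequal numbers. That led by Ntrk2 held 1, 3 and 20 cells of control and 217, 316 and 372 of BLM-treated rats, and that led by Vwf 16, 29 and 91 and 66, 100 and 86. With at least 10 cells in a rat, Clec14a in the Ntrk2-led cluster was at 1499.6 CPM in control replicate 3 and at 1073, 1385 and 1494 CPM in BLM-treated rats. In the Egfl7-led cluster it was at 4492 and 1388 CPM in control replicates 1 and 3 and at 861, 1096 and 1463 CPM in BLM-treated rats. In the Vwf-led cluster it was at 3823, 2440 and 3547 CPM in control and 864, 598 and 831 CPM in BLM-treated rats. The groups were thus well apart in the Vwf-led cluster and overlapped in the Egfl7-led one, whereas in the Ntrk2-led cluster the 1 control rat lay just above the BLM-treated rats. The part of the makeup of the class in the change of Clec14a was not tested.

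In fibroblasts 1 of 12 genes tested passed, or 8.33%, against 1.22% of 7535 genes. Scara5 was at 126 and 216 CPM in control replicates 2 and 3 and 929.5, 889 and 471 CPM in BLM-treated replicates 1 to 3. The groups did not overlap (log2 fold change 2.34 ± 0.46, edgeR adjusted p = 0.0348), and the median of all genes in this class was itself at 0.20. Control replicate 1 had 3 fibroblasts and did not enter this fit, and the other control rats had 15 and 29. The call was lost without BLM-treated replicate 1 or 2, with adjusted p up to 0.129. At a resolution of 2.0, looked at after the values were seen, 2 clusters made up nearly all of the class. That led by Scara5 itself held 2, 3 and 2 cells of control and 113, 596 and 133 of BLM-treated rats, and that led by Col13a1 1, 12 and 27 and 49, 114 and 61 cells. In the Col13a1-led cluster Scara5 was at 30.2 and 40.7 CPM in control replicates 2 and 3 and at 0, 23.6 and 40.95 CPM in BLM-treated rats, with overlapping groups. In the Scara5-led cluster it was at 1230.4, 983 and 617 CPM in BLM-treated rats, and the control rats had too few cells for a level, so that more cells of that kind and more Scara5 per cell cannot be told apart. Clec3b, which led the class, was at 904 and 714 CPM in control and 1203, 966 and 894 CPM in BLM-treated rats, with overlapping groups.

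In club cells 1 of 4 genes tested passed, or 25%, against 4.47% of 3777 genes. Cd14 was at 66.3, 90.6 and 55.8 CPM in control and 249, 251 and 168 CPM in BLM-treated rats (log2 fold change 1.74 ± 0.35, edgeR adjusted p = 0.0096). The groups were apart, from 4, 4 and 13 UMIs in control and 76, 81 and 37 UMIs in BLM-treated rats, and without control replicate 3 the adjusted p was 0.197. At a resolution of 2.0, again looked at after the values were seen, the class divided into a cluster of club cells, with 8, 9 and 20 cells of control and 73, 120 and 63 of BLM-treated rats, and a cluster led by Ager and closest to alveolar type 1 cells, with 6, 12 and 41 and 2, 4 and 6 cells. In the former Cd14 was at 106 CPM in control replicate 3 and at 262, 264 and 177 CPM in BLM-treated rats, and it could not be tested because the other control rats had under 10 cells. The 6 alveolar type 1 markers of the whole class summed to 3463 to 12532 CPM in control and 1304 to 3253 CPM in BLM-treated rats, the 7 classical monocyte markers to 499 to 961 and 1208 to 1346 CPM, and their part in the change of Cd14 was not tested. In the other 10 classes tested, 0 of 66 pairs of gene and class passed with edgeR or DESeq2, and 14 had an unadjusted edgeR p under 0.05. Over all genes, the share with such a p ran from 130 of 2124 in conventional dendritic cells to 573 of 3685 in mesothelial cells. The share of all genes that passed the threshold was 3.28% in smooth muscle cells or pericytes, 2.14% in mesothelial cells and 1.18% in T cells. It was 1.03% in alveolar type 2 cells, 0.941% in non-classical monocytes, 0.577% in plasmacytoid dendritic cells and 0.467% in B cells. Classical monocytes had 0.404%, NK cells 0.0446% and conventional dendritic cells 0%. In fibroblasts, where 1 gene passed, the share was 1.22%.

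**Figure D4:**
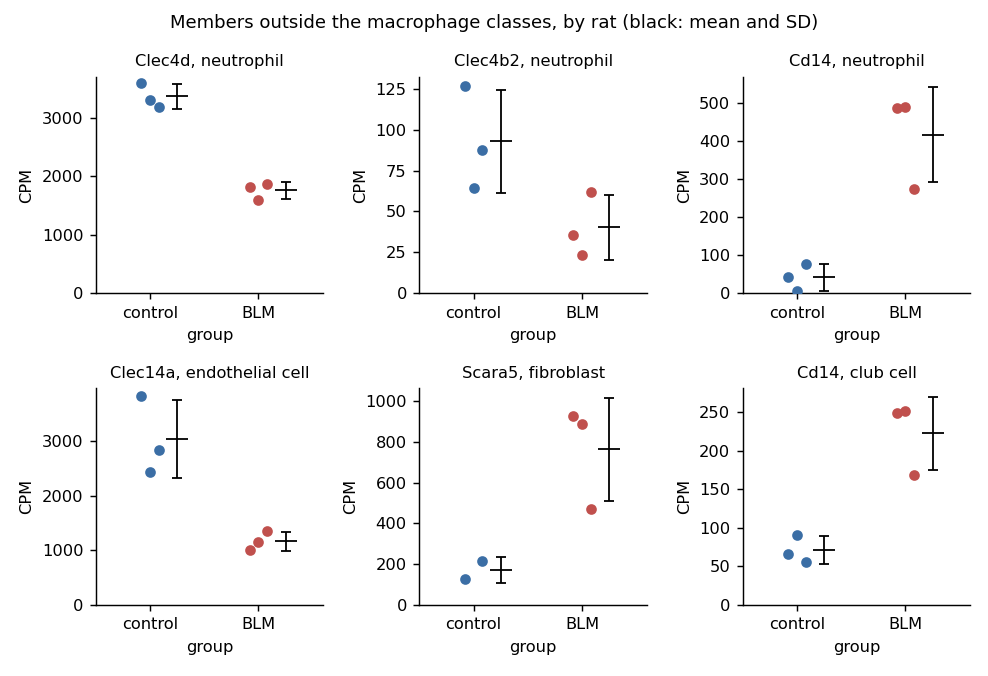
Level (CPM, linear axes from 0) of Clec4d, Clec4b2 and Cd14 in neutrophils, Clec14a in endothelial cells, Scara5 in fibroblasts and Cd14 in club cells, with a point for each control (blue) and BLM-treated (red) rat and a black mark for the mean and SD. Clec4d falls from between 3185 and 3589 CPM to between 1591 and 1871 CPM, and Clec14a from at least 2437 to at most 1347 CPM; fibroblasts have only 2 control rats.

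Vsig4, the complement receptor of resident macrophages, varied between the rats of each group. In alveolar macrophages it was at 45.2, 674 and 29.2 CPM in control replicates 1 to 3 and 489.9, 559 and 24.6 CPM in BLM-treated replicates 1 to 3. Control replicate 2 and BLM-treated replicates 1 and 2 were high and the other rats low, and the log2 fold change was 0.65 ± 1.14 (edgeR adjusted p = 0.773). The same rats were high in proliferating cells, at 492, 499.8 and 587 CPM against 65.3, 59.7 and 85.6 CPM. In Spp1 macrophages the BLM-treated rats had 533, 332 and 115 CPM. In interstitial macrophages Vsig4 lay between 0 and 98.7 CPM. In neutrophils it passed the threshold with overlapping groups (log2 fold change 3.24 ± 0.68, edgeR adjusted p = 0.00677). The values there were 8.45, 64.1 and 9.71 CPM in control and 328, 344 and 51.7 CPM in BLM-treated rats, and leaving out 1 rat moved the fold change of Vsig4 between 2.53 and 4.54. With DESeq2 the call of Vsig4 was lost (log2 fold change 3.01 ± 1.16, DESeq2 adjusted p = 0.0715).

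In the RefSeq annotation Vsig4 overlaps Heph, the gene of the copper-dependent ferroxidase hephaestin, which was looked at after the values of Vsig4 were seen. Heph in alveolar macrophages was at 21.3, 2.05 and 24.2 CPM in control and 8.78, 6.08 and 39.5 CPM in BLM-treated rats, lowest in the 3 rats in which Vsig4 was highest. In proliferating cells it was at 13.6, 0 and 19.9 CPM and at 0, 5.46 and 18.4 CPM, from at most 16 UMIs per rat. Whether the counting used strand is not given in the sources used here, so that reads of these overlapping genes cannot be told apart.

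**Figure D5:**
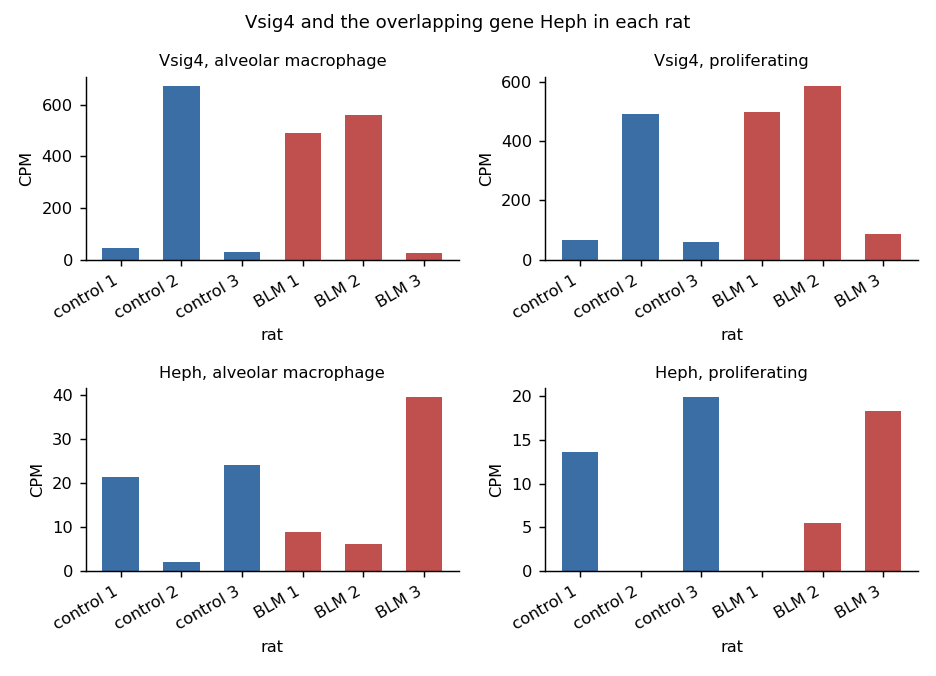
Level (CPM, bars from 0) of Vsig4 (top) and Heph (bottom) in each control (blue) and BLM-treated (red) rat, in alveolar macrophages (left) and proliferating cells (right). Control replicate 2 and BLM-treated replicates 1 and 2 have between 489.9 and 674 CPM of Vsig4 in alveolar macrophages, and the other rats between 24.6 and 45.2 CPM.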

How the data were processed

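Single-cell RNA sequencing of a small piece of lung from each rat was done on the BD Rhapsody platform. The deposited values are counts made by the authors, whole UMIs per gene and cell, not normalized. Which aligner, counter and cell filter were applied is not given in the sources used here. According to the submitters' processing notes the build was mm9, which is a mouse build although the samples are from rat. The build behind the counts is thus uncertain. Because the first column lacks a header, gene symbols were moved by 1 field before use. Groups came from the sample titles. No cell was filtered out. Scrublet marked 99 cells (0.388%), too few to count as a working doublet call, and they left the data in 1 alternative.

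Cells were scaled to 10000 UMIs, and 2000 variable genes without the 46 receptor genes, 30 principal components, 15 neighbours and Leiden resolution 1.0 were used (scanpy 1.11.5, leidenalg 0.10.2, Python 3.11.15). A cluster was named for the marker list with a mean log2 fold of at least 1 and at least 3 markers up, and a cluster of mixed cells by its leading genes. The results of 1 cluster are not reported here. For each rat and class UMIs were added up where at least 10 cells per rat and 2 rats per group were present, and tested with edgeR 4.0.16 (filterByExpr, TMM, quasi-likelihood, Benjamini-Hochberg at 0.05) in R 4.3.3. Named are genes past the threshold with a mean of at least 20 CPM and no overlap between groups, at most 12 per class, the 3 most abundant in each macrophage kind and the most abundant in other classes, and genes past the threshold for the difference of effects. The receptor genes, partner lists and tests were chosen with earlier results of these data known. Tested on simulated data, 71.6% of changes of 1 and 97.7% of changes of 2 on the log2 scale were called in alveolar macrophages, and 54.8% and 98.8% in interstitial macrophages. The same number of genes was changed in both, out of 9131 alveolar and 2476 interstitial genes. The shares changed thus differed from the 11.4% and 1.24% called in the data. Recovery depends on that share, so these rates need not hold for the data. The alternatives comprised RLE scaling, DESeq2 1.42.0, unfiltered genes, a replicate block, leaving out each rat, removal of doublets, a minimum of 500 UMIs per cell, Leiden resolutions 0.5 and 2.0, and clustering with the receptor genes. Restricting alveolar macrophages to the Slc39a2-led cluster was added after seeing the data. RefSeq held 44 of the 46 genes.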

Additional observations from a re-analysis of the deposited data

Results flagged for a closer look

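The effect of BLM differed between interstitial and alveolar macrophages for 3 genes by a test of the difference itself, with edgeR's quasi-likelihood test, the rat as a block and adjustment over 8430 genes. The difference, interstitial minus alveolar, was -4.27 on the log2 scale for Clec10a, -1.64 for Cd14 and -1.03 for Clec4a1. Leaving out each rat in turn gave between -4.67 and -4.13 for Clec10a and between -1.98 and -1.34 for Cd14, with adjusted p up to 0.00168. For Clec4a1 the range was -1.14 to -0.94, with adjusted p up to 0.133 and the call lost without control replicate 3 or BLM-treated replicate 2. All 3 started from a higher level in interstitial macrophages of control rats, with Clec10a at 894 CPM ± 84.0 against 10.95 CPM ± 5.32, Cd14 at 1072 CPM ± 747 against 115 CPM ± 28.2, and Clec4a1 at 438 CPM ± 97.5 against 18.6 CPM ± 1.64 (SD, n = 3).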

How the results depend on the processing

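Under the alternatives 474 values of single genes were recomputed, all for results already past the threshold in the same rats. Of these 0 changed direction, and 51 no longer passed the threshold. The counts of genes or pairs that passed were recomputed too, and have no direction that could reverse. In alveolar macrophages 11 genes passed, 7 in the Slc39a2-led cluster alone, and between 6 and 13 when 1 rat was left out, with 6 without BLM-treated replicate 2. In interstitial macrophages 0 passed, against 2 with no filter (Siglec1 and Clec10a), 1 at resolution 2.0 and between 0 and 1 without 1 rat (Siglec1 in both, the latter without BLM-treated replicate 2). In the other classes 18 pairs passed, 34 with no filter and between 12 and 26 without 1 rat, with 12 without control replicate 3. The difference of effects passed for 3 genes and for between 2 and 4 without 1 rat. With DESeq2 12, 0, 15 and 3 passed in the same order. The cause of these shifts was not tested.

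Correlations between same-numbered rats were 0.0092, -0.0855 and -0.129 in alveolar and -0.024, 0.035 and -0.019 in interstitial macrophages. Between differently numbered rats they ran from -0.032 to 0.138 and from -0.063 to 0.083. Values were centred within each group of 3 rats, which ties the correlations together. They thus cannot settle whether the numbers pair the samples. With a replicate block 9 genes passed in alveolar macrophages, with Clec2d2, Clec4a2 and Mrc1 lost and Sirpb3 gained. In interstitial macrophages 1 (Siglec1) passed with the block, and 15 pairs in the other classes. With 3 rats a group and, in interstitial macrophages, fibroblasts and club cells, few cells per rat, small changes of scarce receptors could not be detected.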
